A study of Mus musculus with 4 samples.

Results

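Retinoic acid is removed, bound and supplied by a small set of proteins, and 8 of their genes were read out in THY1+ spermatogonia of control mice and of mutants that the series text describes as impaired in retinoid signalling in germ cells. The set holds the breakdown enzymes Cyp26a1, Cyp26b1 and Cyp26c1, the intracellular binding proteins Crabp1, Crabp2 and Fabp5, the retinol carrier Rbp4 and the retinol uptake receptor Stra6. They were chosen by gene symbol, and each of the 8 symbols occurred once among the 43998 entries of the gene table. The cells were THY1+ spermatogonia of C57BL/6 mice at postnatal day 4, enriched from testis on CD90.2 antibody beads, in 2 control libraries and 2 libraries of a germ cell RA signaling mutant. The sources used here do not give the altered gene, the driver that restricts it to germ cells, any allele the controls may share or whether animals were pooled. The table holds 1 combined value per gene and genotype, in RPKM (reads per transcript length and sequencing depth, so that genes can be compared per length). With 1 value per genotype no difference could be set against a spread between libraries, and the values stand without an SD, an n or a test.

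Retinoic acid is made inside cells from circulating retinol, which travels on RBP4 and can enter cells through the membrane receptor STRA6. Within the cell CRABP1, CRABP2 and FABP5 hold retinoic acid in solution: CRABP2 hands it to the retinoic acid receptors, FABP5 can pass it to the nuclear receptor PPAR delta, and CRABP1 is linked to its breakdown. The CYP26 enzymes are cytochromes P450 that oxidise retinoic acid and so end the signal, and Cyp26a1 is a textbook target gene of the receptors. In the fetal testis CYP26B1, made by somatic cells, keeps retinoic acid away from germ cells, and after birth retinoic acid starts spermatogonial differentiation.

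The promoters of the enzyme genes are shown because the receptors act through a known element, called DR5, of which Cyp26a1 carries a copy. The element was searched as a pair of hexamers in the same direction with 5 bases between them, each hexamer being A or G followed by GGTCA or GTTCA, on both strands. RefSeq promoter windows (GRCm38.p6, 250 bases before each start to 50 after) were at hand for 6 of the 8 genes, in 10 windows, since Rbp4 and Stra6 have several starts. Cyp26a1 had the element and the other 5 genes did not have these letters in their windows. Of all 32851 windows, 32 (0.0974%) held it. The RefSeq start of Cyp26b1, at 84593810, lies inside its entry in the gene table, which extends to 84593908 on the minus strand. Part of the bases shown for Cyp26b1 therefore lies inside that entry. The 250 bases before the start of Cyp26a1, on the plus strand at chr19:37697558-37697807, and of Cyp26b1, on the minus strand at chr6:84593811-84594060, are given 5′ to 3′, with the DR5 element in capitals:
Cyp26a1: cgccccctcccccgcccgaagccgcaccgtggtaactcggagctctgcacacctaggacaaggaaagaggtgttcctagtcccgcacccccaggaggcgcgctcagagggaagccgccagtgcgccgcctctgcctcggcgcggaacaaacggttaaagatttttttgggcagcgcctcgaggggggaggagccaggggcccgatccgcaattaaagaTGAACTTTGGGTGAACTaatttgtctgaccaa
Cyp26b1: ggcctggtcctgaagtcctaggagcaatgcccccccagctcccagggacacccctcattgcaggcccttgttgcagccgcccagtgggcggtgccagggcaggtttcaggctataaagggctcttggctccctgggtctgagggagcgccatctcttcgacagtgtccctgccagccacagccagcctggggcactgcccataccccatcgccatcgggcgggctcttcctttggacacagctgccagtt
The Cyp26a1 element lies on the strand opposite to the gene, between 32 and 16 bases before the start. Read on its own strand it is shown beside the DR5 element in the promoter of Rarb, a retinoic acid receptor gene known for such an element (chromosome 14, 16575513 to 16575529), with both hexamers in capitals and the spacer in lower case:
Cyp26a1 element: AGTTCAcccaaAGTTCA
Rarb element: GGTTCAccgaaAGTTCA
The same hexamers spaced by 2 bases or by 1 base were in none of the 10 windows, against 0.268% and 0.222% of all windows. A single hexamer was in 3 of the 10, beside 43.7% of all windows. A match describes the letters and is no measure of receptor binding.

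The depth behind the values was read from genes with few reads, whose values step in whole reads. The steps stood for 56.0 M reads in control and 57.3 M in mutant, if no further scaling entered the values. The reads behind each gene below were computed from these steps and its annotated length, and the intervals around them are exact 95% Poisson intervals. Such intervals cover counting error only and say nothing of differences between animals or libraries.

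Most of the 8 genes had lower values in the mutant. Cyp26a1, Cyp26b1 and Fabp5 were lower by 2-fold or more on the log2(RPKM + 1) scale, Stra6, Crabp1 and Crabp2 were lower by less, and Rbp4 was slightly higher. Cyp26c1 was below the limit for comparison, an RPKM of 1 in either genotype. Of all 16473 genes that passed this limit, 4.35% were lower by the same 2-fold rule and 4.4% were higher, beside 3 and 0 of the 7 genes here. Of the 3, Cyp26a1 passed the limit through control alone. The median log2 difference of the 7 was -0.80 and that of all genes 0.0048. This scale understates the difference of genes near 1 RPKM. By the plain ratio, without a pseudocount, 4 of the 7, with Stra6 added, had a control value at least 2-fold the mutant value, as did 7.19% of all genes. Macrophage, Leydig cell and Sertoli cell markers also had lower mutant values, and these values follow the retinoid genes. In these bulk samples, fewer cells of a type and less RNA per cell cannot be told apart.

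**Figure D1:**
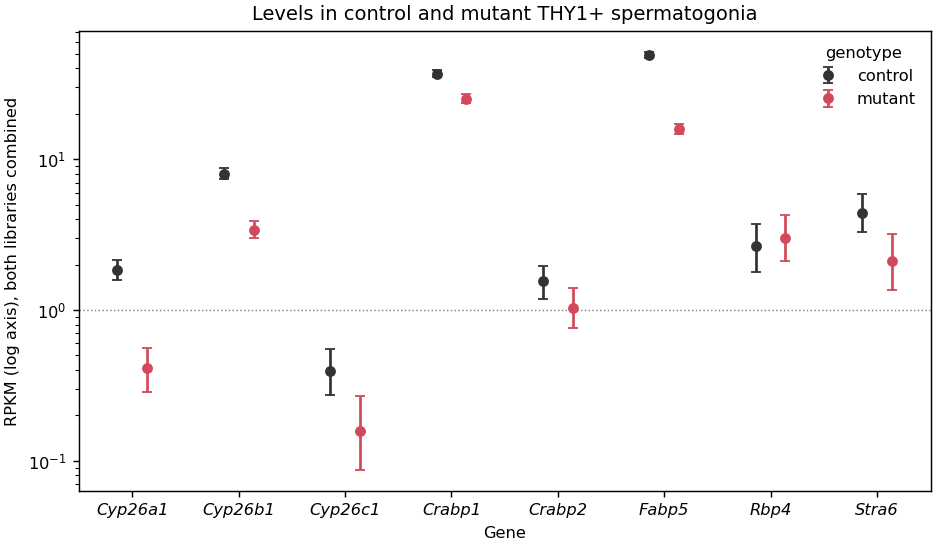
RPKM of each of the 8 genes on a log axis in control (dark) and mutant (red), with both libraries of a genotype combined. Bars are 95% Poisson intervals for counting error only, taken with the shortest coding transcript, and the dotted line is 1 RPKM. The intervals of Cyp26a1, Cyp26b1, Crabp1, Fabp5, Stra6 and Cyp26c1 do not overlap between genotypes, while those of Crabp2 and Rbp4 do. For what share of all genes such intervals are apart was not computed, so this does not set the 8 genes off from others.

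Among the breakdown enzymes Cyp26b1 had the highest level, Cyp26a1 was next and Cyp26c1 was barely present. Cyp26a1, on chromosome 19 (row 37697808 to 37701528, GRCm38), had 1.84 RPKM in control against 0.409 RPKM in mutant. This stood for about 164 control and 37 mutant reads over its coding transcript of 1791 nt. The control value was 4.48-fold the mutant value, with a counting interval of 3.14 to 6.62. Its log2 difference was -1.01, just past the 2-fold rule, because 1 was added to values that are themselves near 1. With a pseudocount of 0.1 it was -1.93, and with the trend of differences over transcript length removed, a choice made after the data were seen, it was -0.85 and no longer past the rule.

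Cyp26b1 (chromosome 6, 84571414 to 84593908, minus strand) had 8.02 RPKM in control against 3.41 RPKM in mutant, a 2.35-fold lower mutant value. GENCODE M21 lists 5 coding transcripts from 1340 to 4495 nt for this gene. The shortest puts at least 512 control and 221 mutant reads behind these values, and a counting interval of 2.0 to 2.76 around the fold. The log2 difference was -1.03 and it was -1.03 or lower under every processing choice tried. Cyp26b1 made up 78.3% of the summed Cyp26 level in control and 85.7% in mutant, and Cyp26a1 17.9% and 10.3%. The sum itself was 10.2 RPKM in control against 3.97 RPKM in mutant.

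Cyp26c1 is the third enzyme of the family and lies 4.41 kb before Cyp26a1 on chromosome 19 (37685581 to 37693398). It had 0.393 RPKM in control against 0.158 RPKM in mutant, or about 34 and 14 reads over 1747 nt. The ratio of 2.48 had a counting interval of 1.29 to 4.98. Its level was thus detectable but too low for the comparison across genes.

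The intracellular binding proteins included the genes with the highest levels of the 8, Fabp5 and Crabp1, while Crabp2 was near the bottom of the order in control. Fabp5, on chromosome 3 (10012548 to 10016607), had 49.2 RPKM in control against 15.9 RPKM in mutant, about 2169 and 708 reads. The mutant value was 3.09-fold lower (counting interval 2.84 to 3.37), with a log2 difference of -1.57, the lowest of the 7 genes compared. Crabp1, on chromosome 9 (54764748 to 54773110), had 37.0 RPKM in control against 25.2 RPKM in mutant, about 1247 and 854 reads. Its control value was 1.47-fold the mutant value (1.35 to 1.60) and its log2 difference of -0.54 did not meet the 2-fold rule. With values rescaled so that germ cell genes had a median of 0, Crabp1 stood at -1.01, past the rule, and with the trend over transcript length removed it stood at -0.20.

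Crabp2, also on chromosome 3 (87948666 to 87953376), had 1.55 RPKM in control against 1.03 RPKM in mutant, about 63 and 43 reads. The counting interval of its fold, 0.987 to 2.23, spans equal levels. Crabp1, whose protein is linked to breakdown, was thus 23.9 times the level of Crabp2 in control and 24.4 times in mutant. The level of Fabp5 over that of Crabp2 was 31.8 in control and 15.4 in mutant, and over that of Crabp1 1.33 and 0.632. The order of the most abundant binding proteins was therefore Fabp5 above Crabp1 in control and Crabp1 above Fabp5 in mutant, and their counting intervals were apart in each genotype. Fabp5 held 56.1% of the summed level of the 3 binding proteins in control and 37.8% in mutant, while Crabp1 held 42.1% and 59.8%.

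Fabp5 has near-identical processed copies, so reads of the gene and its copies can be exchanged in counting. Of the coding transcripts of the 8 genes, those of Fabp5 matched other GENCODE transcripts over 300 nt or more, in 5 processed pseudogenes, and those of the other genes had no such match. The closest, Gm6166, shares 98.3% of 409 bases and had 3.89 RPKM in control against 2.49 RPKM in mutant. The 5 copies together were at 4.27 and 3.56 RPKM, against 49.2 and 15.9 RPKM for Fabp5. No source used here says how reads shared by the gene and its copies were counted, and the level listed for Fabp5 is uncertain by an amount that was not measured.

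The supply genes differed from each other. Stra6, the uptake receptor, had 4.39 RPKM in control against 2.10 RPKM in mutant, a 2.09-fold lower mutant value. With the shortest of its 13 coding transcripts (398 nt) this stood for 49 and 23 reads and a counting interval of 1.24 to 3.56, and with the longest (3077 nt) for 708 and 346 reads and an interval of 1.83 to 2.38. The log2 difference of -0.80 lay short of the 2-fold rule, and it was past it at -1.03 with a pseudocount of 0.1 and at -1.11 with values rescaled to germ cell genes. The position listed for Stra6, chromosome 9 from 58028677 to 58153996, is shared with 3 other entries. Among them is Ccdc33, which overlaps Stra6 on the opposite strand and was at 0.0944 and 0.0471 RPKM. The sources used here do not say whether counting used the strand.

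Rbp4, the carrier of retinol in blood, had 2.65 RPKM in control against 3.02 RPKM in mutant (chromosome 19, 38116620 to 38125321). Of the 7 genes compared it was the 1 with a log2 difference above 0, at 0.14. With the longest of its 4 coding transcripts, 143 and 165 reads stood behind the values, and the control value was 0.878-fold the mutant value with a counting interval of 0.696 to 1.10, which spans equal levels. The direction turned to -0.21 with values rescaled to germ cell genes. Stra6 was thus at 1.66 times the level of Rbp4 in control and 0.696 times in mutant.

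Ordered by level per length, control read Fabp5, Crabp1, Cyp26b1, Stra6, Rbp4, Cyp26a1, Crabp2 and Cyp26c1. Mutant read Crabp1, Fabp5, Cyp26b1, Rbp4, Stra6, Crabp2, Cyp26a1 and Cyp26c1. In this order 3 pairs of neighbours, Fabp5 with Crabp1, Stra6 with Rbp4 and Cyp26a1 with Crabp2, traded places. In control the counting intervals of Cyp26a1 (1.57 to 2.14) and Crabp2 (1.18 to 1.97) overlapped. For genes with several transcripts the interval depends on the length used. With the shortest transcripts that of Rbp4 in control (1.79 to 3.74) overlapped those of Stra6 (3.27 to 5.84), Cyp26a1 and Crabp2, and with the longest (2.24 to 3.13, and 4.08 to 4.73 for Stra6) it overlapped none of them. In mutant the shortest transcripts gave overlaps among Cyp26b1 (2.98 to 3.89), Rbp4 (2.13 to 4.25) and Stra6 (1.35 to 3.20), and between Stra6 and Crabp2 (0.753 to 1.40). With the longest, Cyp26b1 (3.18 to 3.65) and Rbp4 (2.58 to 3.53) still overlapped, while Stra6 (1.89 to 2.34) was apart from both and from Crabp2. Fabp5 lay above 86.3% of the 16473 genes in control and above 62.3% in mutant, and Cyp26b1 above 45.9% and 29.1%. Cyp26a1 lay above 19.8% in control. It passed the limit through control alone, so a low place among these genes in mutant was largely set by that limit and is not given.

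**Figure D2:**
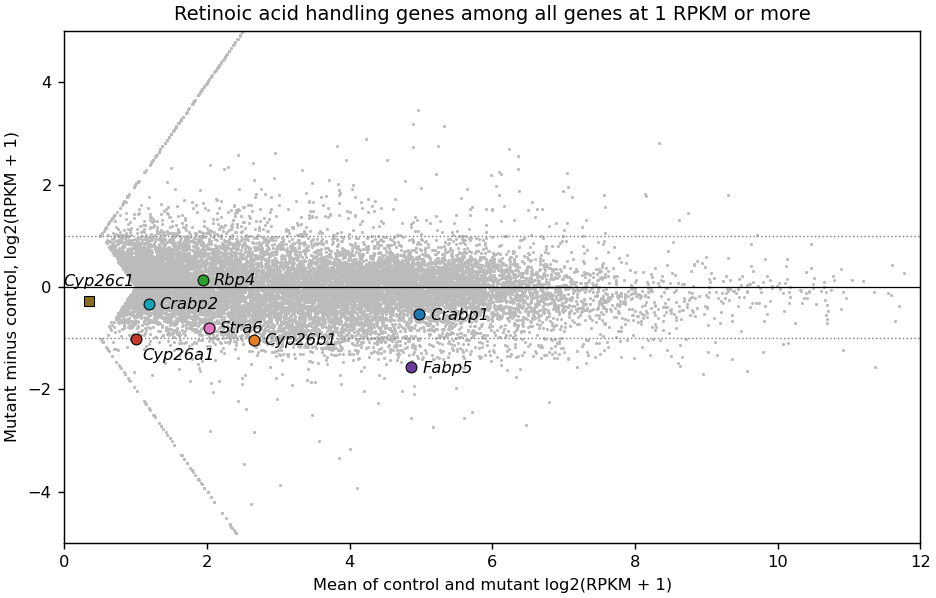
Mutant minus control difference of log2(RPKM + 1) against the mean of both, for all genes at 1 RPKM or more (grey) and the 8 genes (coloured, Cyp26c1 as a square because it lies below that limit). Dotted lines mark 2-fold, and 186 grey points lie outside the axes. Fabp5 is the farthest below 0 of the 8, at -1.57, while Crabp1 at a similar mean level is at -0.54.

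Differences were also placed among genes of like level, whose mean RPKM was within 2-fold of the gene's own. For Fabp5, 60 of 4696 such genes (1.28%) had a log2 difference as low or lower. Cyp26a1 passed the limit through control alone, so its place among such genes was partly set by that limit and is not given. The share was 3.60% for Cyp26b1, 6.35% for Stra6, 15.5% for Crabp1 and 19.2% for Crabp2. For Rbp4 it was 55.7%. These places describe single genes and have no error rate.

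Genes next to the 8 on the chromosome were read as well. The nearest gene on each side with an RPKM of 1 or more was read for every member, which gave 14 distinct neighbours outside the set. None of them was past 2-fold, beside 4.35% of all genes lower and 4.4% higher by that rule. Their log2 differences ran from -0.76 to 0.47 with a median of 0.06. Exoc6, a subunit of the exocyst that precedes Cyp26c1 and Cyp26a1, had 15.3 RPKM in control against 14.8 RPKM in mutant. Islr, 2.27 kb after Stra6, was the neighbour with the lowest difference, at 12.7 and 7.08 RPKM, near the -0.80 of Stra6. Within 1000 kb of Cyp26a1, 14 other protein-coding genes besides Rbp4 passed the limit, and they ranged from -0.47 to 0.47 with none past 2-fold. Beside such small shares of all genes, neither count sets these neighbours off from other genes.

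**Figure D3:**
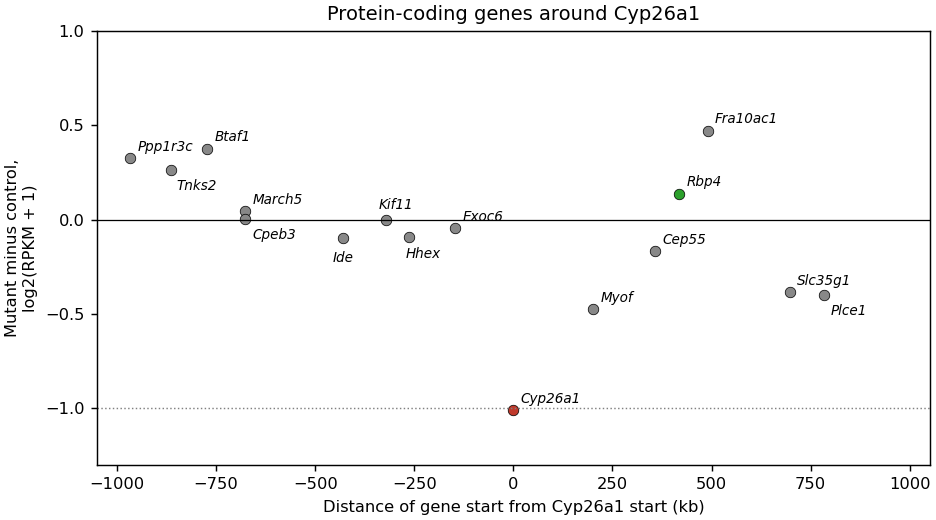
Mutant minus control difference of log2(RPKM + 1) for protein-coding genes at 1 RPKM or more, against the distance of their start from that of Cyp26a1 in kb, with Cyp26a1 in red and Rbp4 in green. The dotted line marks 2-fold lower. Cyp26a1 is at -1.01 and the other genes lie between -0.47 and 0.47.

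The genes that make retinoic acid or handle retinol were read beside those that remove it. Of 31 genes of this kind, 15 passed the limit. Rdh1, Rdh5 and Rdh13 were not set against it because their entries pool several symbols. Of the 15, 4 were lower by the 2-fold rule, beside 4.35% of all genes, and none higher. The median was -0.59, against 0.0048 for all genes. The 4 were Adh1, an alcohol dehydrogenase acting on retinol (88.7 and 21.7 RPKM), Lpl, a lipoprotein lipase that releases retinyl esters for uptake (63.3 and 17.9 RPKM), Dhrs3, which reduces retinal to retinol (57.6 and 21.2 RPKM), and Aldh1a1, a retinal dehydrogenase (94.9 and 39.1 RPKM). The summed level of the 3 Aldh1a genes, which make retinoic acid, was 108 RPKM in control against 47.2 RPKM in mutant. Set against the Cyp26 sum, this gave 10.5 RPKM of Aldh1a per RPKM of Cyp26 in control and 11.9 in mutant, and the sums themselves were 2.29-fold and 2.58-fold lower in mutant. The uptake receptor related to Stra6, Rbpr2, was near the floor at 0.135 and 0.193 RPKM, as was Ttr, the blood partner of RBP4, at 0.0171 and 0.0177 RPKM.

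CYP26 enzymes draw electrons from partner proteins of the P450 system, of which 3 were read. Cyb5a, cytochrome b5, was lower by the 2-fold rule at 150 and 74.2 RPKM. Por, the P450 reductase, was at 57.9 and 35.9 RPKM, and Cyb5r3, the reductase of cytochrome b5, at 46.3 and 37.7 RPKM, neither past the rule. These partners also serve the steroid-making P450 enzymes of Leydig cells.

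Of 9 further genes of the fatty acid binding protein family, 1 passed the limit. Fabp9 and Pmp2 were not set against it because their entries pool several symbols. The gene that passed was Fabp3, an intracellular carrier of fatty acids, at 30.1 RPKM in control against 11.1 RPKM in mutant. Its mutant value was 2.72-fold lower, beside the 3.09-fold of Fabp5. Among 4 lipocalins and other retinoid carriers, Ptgds passed the limit and was at 10.6 and 5.31 RPKM, a log2 difference of -0.88 and not past the rule.

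Genes of the retinoic acid receptors, the retinoid X receptors and PPAR delta had mostly smaller differences. Of 6 receptor genes that passed the limit none was lower by 2-fold and 1 was higher, beside 4.35% and 4.4% of all genes. Their median was -0.11. The higher one was Rarg at 5.22 and 13.8 RPKM. Ppard, which encodes the receptor served by FABP5, had 3.15 RPKM in control against 1.94 RPKM in mutant, and Rara, a retinoic acid receptor gene, was at 20.6 and 19.4 RPKM.

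Genes known to respond to retinoic acid were lower as well. Of 20 such genes 13 passed the limit, and Meis1 was left out because its entry pools several symbols. All 13 lay below 0, beside 49.6% of all genes, and 6 were lower by the 2-fold rule, beside 4.35% of all genes. Their median was -0.83, near the -0.80 of the 7 genes compared here. The 6 were Stra8, a gate to meiosis (45.2 and 8.60 RPKM), Kit, a receptor of differentiating spermatogonia (27.3 and 9.65 RPKM), Dhrs3, the D-type cyclin gene Ccnd2 (247 and 102 RPKM), the mTOR inhibitor gene Ddit4l (9.17 and 3.23 RPKM) and the transcription factor gene Sall4 (72.3 and 30.3 RPKM). This list was written with earlier results of these samples known, so its direction is not independent evidence. Of 31 genes with a DR5 element in a promoter window, 16 had an entry of their own and 4 passed the limit. These were Cyp26a1, Blvrb, a biliverdin reductase (89.0 and 34.3 RPKM), Cfap45, a cilium gene (1.30 and 0.925 RPKM), and the predicted gene Gm4631 (10.7 and 14.5 RPKM). Rarb, at 0.554 and 0.309 RPKM, did not pass.

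Most markers of other testis cells were lower in the same mutant values. Of all genes that passed the limit, 49.6% lay below 0. Macrophage markers had a median log2 difference of -1.36 (12 of 12 below 0, summed level 4675 RPKM in control against 1704 RPKM in mutant), Leydig cell markers -1.13 (8 of 8, 605 and 232 RPKM), and Sertoli cell markers -0.85 (15 of 15, 727 and 356 RPKM). Peritubular myoid markers stood at -0.66 (6 of 6, 95.8 and 43.4 RPKM) and interstitial fibroblast markers at -0.65 (7 of 8, 214 and 135 RPKM). Immediate early genes, which are not markers of a cell type, were at -0.69 (5 of 6, 659 and 403 RPKM). Mast cell markers were at -3.08 (6 of 6, 217 and 18.3 RPKM) and erythroid markers at -2.04 (5 of 5, 416 and 76.5 RPKM). Endothelial markers were at 0.06 (4 of 8 below 0, 30.1 and 30.9 RPKM), and germ cell markers at 0.49 (2 of 16 below 0, 1061 and 1402 RPKM). The macrophage, Leydig cell and Sertoli cell markers compared were detected in both genotypes, which the limit of 1 RPKM in either makes likely. Germ cell markers were present in both genotypes, as labelled. The summed level of the macrophage markers was above that of the germ cell markers in each. These sums cover different lists, of 12 and 16 genes, and hold very abundant transcripts such as Lyz2 (1339 and 428 RPKM). They do not compare amounts of cells.

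**Figure D4:**
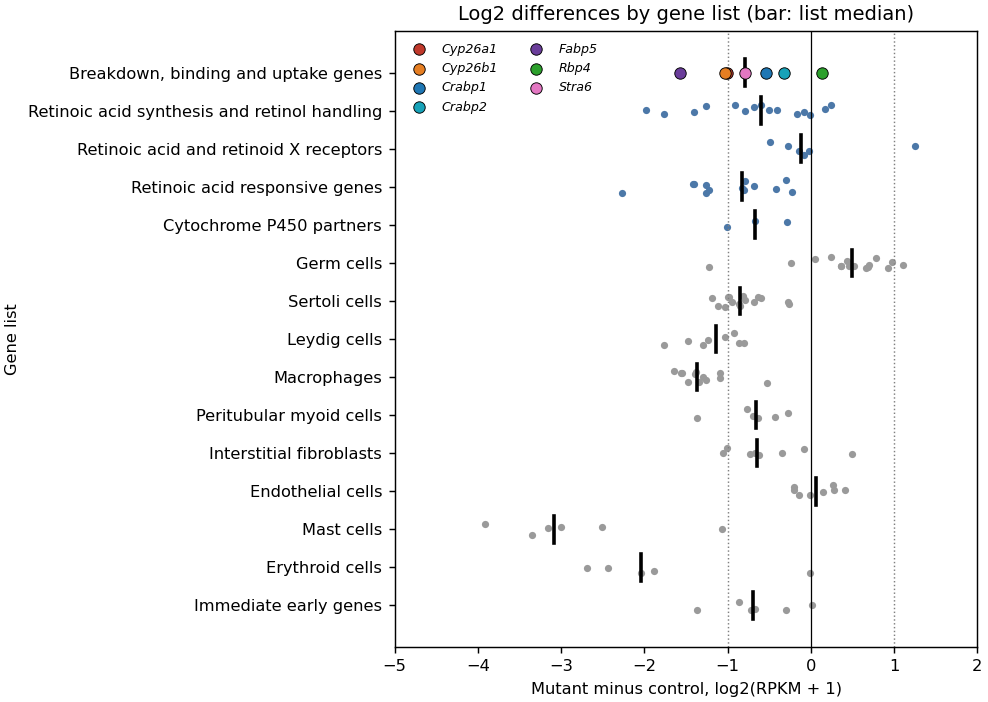
Mutant minus control difference of log2(RPKM + 1) for each gene at 1 RPKM or more, by list, with the 7 genes compared here on top. Other retinoid lists are in blue, and cell type lists and immediate early genes are in grey. Black bars are list medians, and lists with fewer than 3 such genes are not drawn. The retinoic acid handling genes have a median of -0.80, Sertoli cell markers -0.85, macrophage markers -1.36 and germ cell markers 0.49.

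The ranges of these lists overlap widely, so a value inside one does not tell the lists apart. Cyp26a1 (-1.01) and Cyp26b1 (-1.03) lay inside the ranges of the Sertoli cell (-1.19 to -0.26), Leydig cell (-1.77 to -0.81), macrophage (-1.64 to -0.53), peritubular myoid (-1.37 to -0.28), fibroblast (-1.06 to 0.49) and germ cell markers (-1.23 to 1.11). Stra6 (-0.80) and Crabp1 (-0.54) lay inside the same ranges except that of Leydig cells. Crabp2 (-0.33) lay inside those of Sertoli cell, myoid, fibroblast and germ cell markers. Fabp5 (-1.57) lay inside the ranges of Leydig cell, macrophage, mast cell (-3.92 to -1.07) and erythroid markers (-2.69 to -0.01), and outside that of germ cells. The erythroid range also held Cyp26a1, Cyp26b1, Stra6, Crabp1 and Crabp2. Rbp4 (0.14) lay inside the ranges of germ cell, fibroblast and endothelial markers (-0.20 to 0.41) and outside those of Sertoli cell, Leydig cell, macrophage and myoid markers. Some ends of these ranges rest on 1 gene. In the germ cell list this was Sall4 (-1.23), also listed as responsive to retinoic acid, and the next lowest was Lin28a (-0.23). Cyp26a1, Cyp26b1, Stra6, Crabp1 and Crabp2 were thus inside the germ cell range through Sall4 alone. Other such ends were Igf1 (-1.06) and Ptch1 (0.49) for fibroblasts, Acta2 (-1.37) for myoid cells, Mcpt1 (-1.07) for mast cells and Alas2 (-0.01) for erythroid cells. For macrophages they were Cd14 (-0.53, next Mrc1 at -1.09) and Lyz2 (-1.64, next Cd68 at -1.56). For Leydig cells it was Cyp17a1 (-1.77, next Hsd3b1 at -1.48). Cyp26a1, Cyp26b1, Stra6 and Crabp1 were thus inside the macrophage range through Cd14 alone. Fabp5 was inside it through Lyz2 alone, and inside the Leydig cell range through Cyp17a1 alone. The part of other cells in the difference of each gene was not tested.

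**Figure D5:**
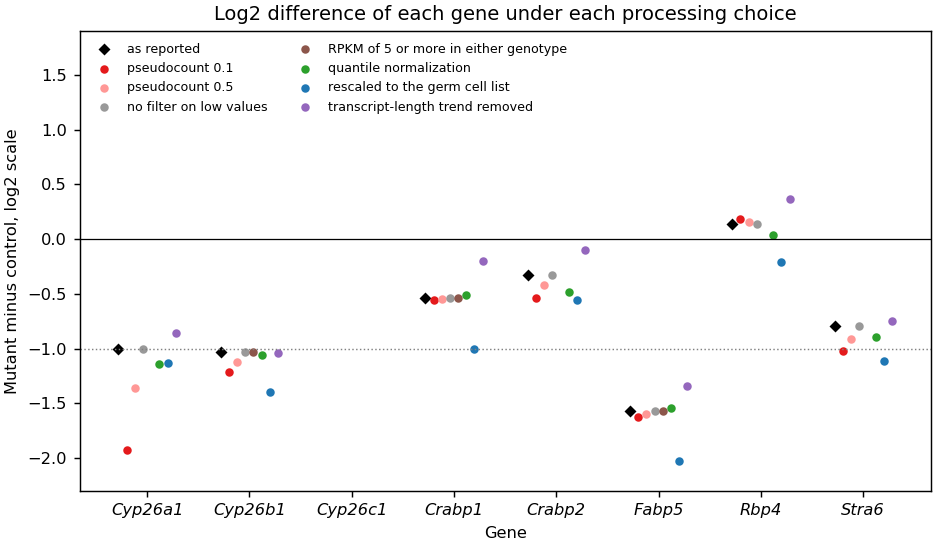
Mutant minus control log2 difference of each gene as reported (diamond) and under 7 other processing choices (circles). The dotted line marks 2-fold lower, and a gene has no symbol where it fell below the limit of that choice. Cyp26c1, below the limit as reported, is not drawn. Fabp5 and Cyp26b1 stay at or below -1.03 throughout, while Rbp4 spans from -0.21 to 0.37.

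Across the 8 ways of processing, as far as each gene passed the limit, Fabp5 ranged from -2.03 to -1.34 and Cyp26b1 from -1.40 to -1.03, where both were past 2-fold each time. Cyp26a1 ranged from -1.93 to -0.85, Stra6 from -1.11 to -0.75, Crabp1 from -1.01 to -0.20 and Crabp2 from -0.56 to -0.10. Rescaling to germ cell genes moved the median of all genes to -0.44 and the share of all genes past 2-fold to 13.7% lower and 2.78% higher. Under it 5 of the 7 genes, with Stra6 and Crabp1 added, were 2-fold lower.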

How the data were processed

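RNA of 4 libraries was measured by sequencing, 2 control and 2 mutant. Per the submitters' processing notes, TopHat2 2.0.11 and GRCm38 were used, while the sources used here name no counting program or annotation. The authors deposited RPKM, per the file headers, with 1 column for both libraries of each genotype, and how they were combined is not given. The planned linear model needs a value per library, so no test was run. Differences were computed as log2((mutant RPKM + 1) / (control RPKM + 1)) for genes that reached an RPKM of 1 in at least 1 genotype, and 2-fold was used as a limit of size. The 774 such entries that pool several symbols were left out, and a repeated symbol was represented by its entry with the highest mean. Starts count from 0 in the table and 1 was added.

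Depth was found from genes with 1 annotated GENCODE M21 transcript of at least 1000 nt, as the step for which RPKM × (length − offset) gave whole reads. Whole reads, to within 0.1, were found for 90.5% of 884 control and 95.3% of 900 mutant values of at most 10 reads, with steps of 17.9 and 17.4 RPKM × nt (offsets of 200 and 210 nt). A value of 3 reads, the limit that a count of 0 allows, was 0.0337 RPKM in control and 0.0331 RPKM in mutant for Cyp26a1. The scripts were tested on simulated data. Copies were searched with blastn 2.17.0, and analysis used Python 3.11.15, pandas 2.3.3 and scipy 1.17.1.

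The members and lists were chosen with earlier results of these data known. Named are all 8 genes, their neighbours and, per retinoid list, the genes past 2-fold (at most 6) or otherwise those with the highest mean, with a few more named for their role after their values were seen. Cell type lists and the immediate early genes are given as sums and medians. Alternatives were other pseudocounts, limits and scalings, and removal of the trend with transcript length.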

Additional observations from a re-analysis of the deposited data

How the results depend on the processing

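No paired analysis was possible because each genotype has 1 combined column, and for the same reason no library could be left out. Of the 7 other ways of processing that could change a value, rescaling to the germ cell list moved the number of genes 2-fold lower from 3 to 5 and that of the other retinoid genes from 11 to 18 of 37, while the median of all genes moved to -0.44. The same rescaling turned Rbp4 to -0.21. The share of all genes past 2-fold was 4.35% lower and 4.4% higher as reported, 6.72% and 8.6% with a pseudocount of 0.1, and 13.7% and 2.78% after rescaling. Removing the trend with transcript length, added after the data were seen, left 2 of the 7 genes past 2-fold, with Cyp26a1 at -0.85. Under this choice, which kept protein-coding genes only, the share of all genes also fell, to 2.67% lower and 1.76% higher. An RPKM of 5 as limit left 3 genes to compare. Each symbol had 1 entry, so summing entries changed nothing. At this depth Cyp26c1 could be detected but not compared, and for Crabp2 and Rbp4 the counting interval of the fold spans equal levels.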
